A study of Mus musculus with 38 samples.

Results

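Matrix metalloproteinases (MMPs) and the tissue inhibitors of metalloproteinases (TIMPs) were examined in stromal-vascular cells (SVCs), the cells left once the fat cells of adipose tissue are removed, from epididymal fat of mice on low fat and high fat diets. The members were the genes Mmp2, Mmp3, Mmp9, Mmp12, Mmp13, Mmp14, Timp1, Timp2, Timp3 and Timp4, taken as every non-control probe that the array files name for them. This gave 13 probes for 10 genes, 6 MMPs and 4 TIMPs, of 40628 probes and 29411 gene symbols on the array. Mmp9, Mmp14 and Timp1 had 2 probes each, and each of the other genes had 1.

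The mice were C57BL/6J, weaned at 3 to 4 weeks of age, and the labels name no transgene or deletion in any group. The low fat control group (LFC) drew 10% of its calories from fat, the high fat control group (HFC) drew 60% from fat on a diet rich in sucrose, and the HF5, HF20 and HF75 groups ate the same diet as HFC plus KAL-1, a botanical formulation, at 5, 20 or 75 µg. LFC and HFC were sampled at 10 time points (days 6, 10 and 14 and weeks 0, 3, 6, 9, 12, 15 and 18), the dosed groups at the 6 from week 3 on, with 1 one-colour array per diet and time point and 38 arrays in all. The labels give 5 animals killed per group and interval and mention 3 replicates, but do not say whether the RNA of an array came from 1 animal or a pool. The diets were therefore compared across time points, and the p-values of these comparisons measure the spread between time points. In the comparisons among weeks the p-values measure the spread between the single arrays of the diets. They do not measure the spread between repeats of a week, since each week was sampled once.

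MMPs are zinc-dependent proteases that cut collagen, elastin and other matrix proteins outside the cell, most of them secreted as inactive precursors. TIMPs bind the active site of MMPs and block them. In expanding fat the fibroblasts, macrophages and vessel cells of the stromal-vascular fraction remodel the matrix around growing fat cells, and Timp1, Mmp12 and Mmp14 are known as genes of obese adipose tissue. In bulk SVC RNA, fewer cells of a type and less RNA per cell cannot be told apart.

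The genes of 3 members, Mmp3, Mmp12 and Mmp13, lie beside each other on mouse chromosome 9, and each has a RefSeq promoter window (build GRCm38.p6, + strand) with TGAGTCA, the motif bound by the Fos and Jun proteins, on either strand. For Mmp12 this is the second of 2 annotated starts, and the window of the other start held neither TGAGTCA nor TATAAA. They are shown because Mmp3 and Mmp13 differed at week 6, in opposite directions, and share this arrangement. Capitals mark TGAGTCA or its reverse complement, and TATAAA, and each line runs from 100 bases before the annotated start through 30 bases from it.
Mmp3, chr9:7445722-7445851: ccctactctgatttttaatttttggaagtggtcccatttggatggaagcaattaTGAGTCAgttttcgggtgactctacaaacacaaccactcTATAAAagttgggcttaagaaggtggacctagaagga
Mmp12, chr9:7347274-7347403: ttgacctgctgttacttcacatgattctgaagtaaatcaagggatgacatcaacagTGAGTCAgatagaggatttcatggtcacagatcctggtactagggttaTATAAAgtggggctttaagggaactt
Mmp13, chr9:7272414-7272543: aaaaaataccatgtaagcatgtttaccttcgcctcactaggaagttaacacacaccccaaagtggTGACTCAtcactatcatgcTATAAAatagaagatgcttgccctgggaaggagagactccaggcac
The motif began 46, 44 and 35 bases before the start in Mmp3, Mmp12 and Mmp13. Among the 300-base windows of all RefSeq genes in the table, 1709 of 32851 (5.2%) held TGAGTCA on either strand and 13.6% held TATAAA. The table held 9 windows for 8 of the 10 members, without Mmp2 and Mmp9, and the other 6 windows, 1 of them that of Mmp12, held no TGAGTCA. A match describes these letters only and says nothing of binding.

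The level of a probe was log2 of its processed signal minus log2 of the array's 75th percentile signal, so a level of 0 is that percentile. The 75th percentile lay between 25.8 (HF5 at week 12) and 1983 (HFC at week 0) intensity units, and between 41.1% and 91.2% of probes were well above background on an array. The number of arrays and this spread in brightness limit the precision. The macrophage gene Emr1 was well above background on 38 of 38 arrays. Tcf21 and Wt1, which mark visceral as against subcutaneous fat, went against the epididymal label on some arrays. At week 6 Tcf21 lay between -8.56 and -1.79 and Wt1 between -6.33 and -1.73, and on the LFC arrays of days 6 and 10 Tcf21 lay at -6.42 and -6.77 and Wt1 at -7.06 and -7.20. On the other 31 arrays Wt1 lay between -3.87 and 2.36, and on the 30 of them with a value Tcf21 lay between -1.94 and 1.53. Several test results that rest on week 6 or on days 6 and 10 are therefore also given without them. The correlations across arrays and the slopes of single members are given only with them.

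Most members were measured on nearly all arrays. The inhibitors Timp2, Timp3 and Timp4, the stromelysin Mmp3 and the brighter probes of Mmp14 and Timp1 were well above background on 38 of 38 arrays, the gelatinase Mmp2 on each of the 37 arrays that measured it, and the collagenase Mmp13 on 36. The 2 probes of Mmp9, a gelatinase of neutrophils and other leukocytes, were well above background on 34 and 35 arrays. Mmp12, the macrophage elastase, was well above background on 21 arrays, on 4 of 10 LFC arrays and 5 of 10 HFC arrays, and on none of the LFC and HFC arrays of days 6, 10 and 14. The Timp2 spot was saturated on 22 arrays and that of Timp3 on 2, so their differences can be understated. The 2 probes of a gene moved together over 37 arrays, with Pearson's r of 0.853 for Mmp9, 0.78 for Mmp14 and 0.84 for Timp1.

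**Figure D1:**
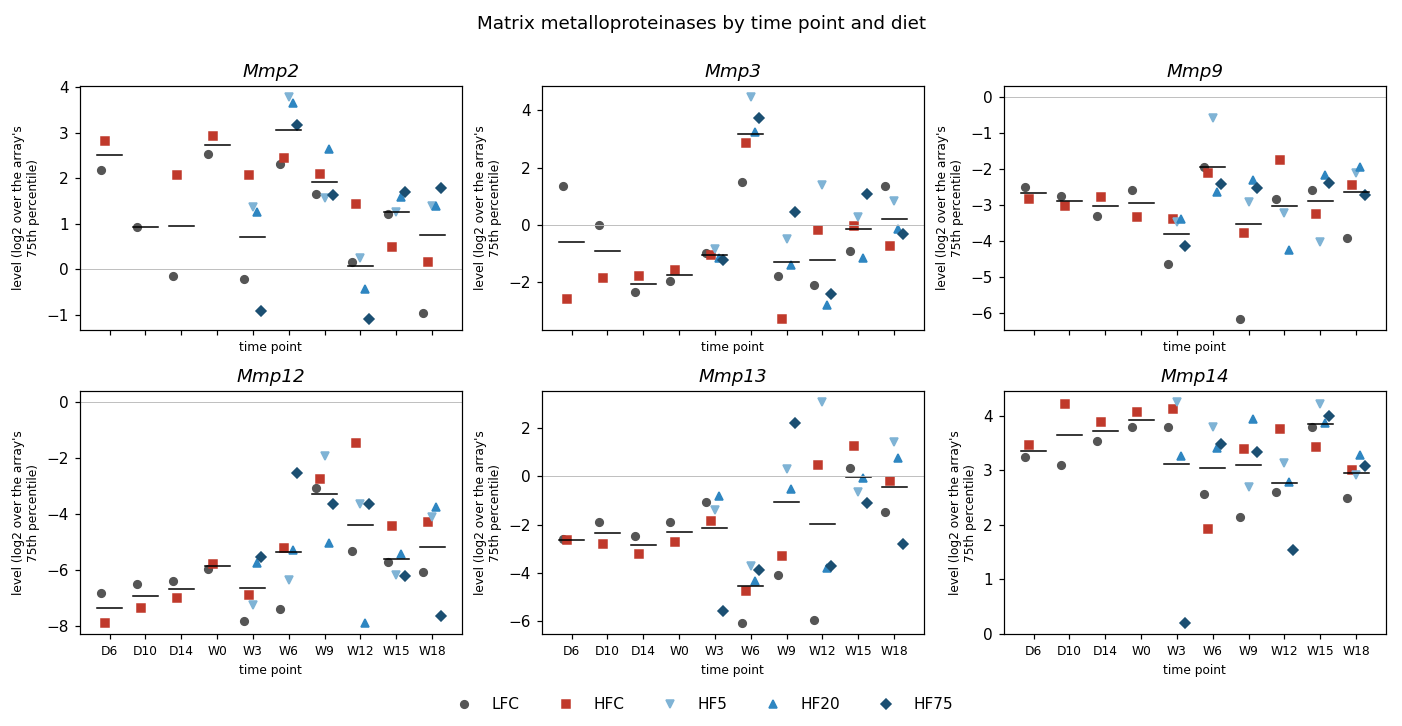
Levels of the 6 metalloproteinases (y axis, log2 over the 75th percentile of the array; x axis, time point; 1 symbol per diet and array, with a bar at the mean over the diets and no error bars), with 1 probe per gene. Mmp3 at week 6 lies between 1.51 and 4.44 in the 5 diets, above each of the other 33 arrays, while Mmp13 at week 6 lies between -6.09 and -3.72.

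The most marked pattern of the metalloproteinases was a difference between weeks that the 5 diets shared. Over weeks 3 to 18, with diet in the model, 4 of the 10 members differed among weeks (limma F test, adjusted p below 0.05), against 40.8% of the 33711 probes tested, so the members' share was that of the array. These were Mmp3 (F = 14.3, adjusted p = 0.000188), Mmp2 (F = 8.55, adjusted p = 0.00175), Timp1 (probe P87713, F = 3.82, adjusted p = 0.0337) and Mmp13 (F = 3.49, adjusted p = 0.0441). The 2 probes of Mmp9 fell on either side of the threshold (adjusted p = 0.101 for P401797, which represents the gene, and 0.04 for P507214), and the other Timp1 probe, P512384, did not pass (F = 1.75, adjusted p = 0.228). Without week 6 none of the 10 passed (4 at an unadjusted p below 0.05), and the adjusted p-values of these genes became 0.228, 0.115, 0.111 and 0.556. Each week was next set against the mean of the other weeks in the same fit, contrasts that were chosen after seeing the data.

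At week 6, 4 members passed, 3 higher and 1 lower, against 27.7% of all probes tested (11.9% higher and 15.8% lower). Mmp3, a stromelysin that cuts proteoglycans and activates other MMPs, was at 1.51 in LFC, 2.87 in HFC, 4.44 in HF5, 3.23 in HF20 and 3.73 in HF75 at week 6. The other 33 arrays lay between -3.26 and 1.40, so the 5 week 6 arrays stood above all others. The difference was 3.86 on the log2 scale (SE 0.49, adjusted p = 9.48e-06). It stayed past the threshold under each of the 16 alternatives that could be run for it, between 3.33 and 4.08. The LFC arrays of days 6 and 10, which were also low in Tcf21 and Wt1, had Mmp3 levels of 1.36 and 0.015, against -2.57 and -1.85 in HFC on the same days.

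Mmp2, the gelatinase of fibroblasts, was at 2.30 in LFC, 2.45 in HFC, 3.77 in HF5, 3.64 in HF20 and 3.16 in HF75 at week 6. It was higher there than in the other weeks by 2.13 (SE 0.40, adjusted p = 0.000484), and of the other 32 arrays that measured it 4 reached the lowest week 6 level. This difference lay between 1.91 and 2.37 under 16 alternatives and passed in each. Mmp9 was higher at week 6 by 1.24 with probe P401797 (SE 0.46, adjusted p = 0.0469) and by 1.23 with probe P507214 (SE 0.42, adjusted p = 0.0314). Its week 6 levels ran from -2.62 to -0.56 with the former probe, and 11 of 32 other arrays reached that range. After normexp background correction with the same scaling the Mmp9 differences were 0.28 and 0.31 (adjusted p = 0.79 and 0.783), and the former probe passed in 5 of 15 alternatives.

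Mmp13, a collagenase that cuts fibrillar collagen, was low at week 6, at -6.09 in LFC, -4.75 in HFC, -3.72 in HF5, -4.34 in HF20 and -3.86 in HF75. Of the other 33 arrays 4 lay at or below the highest of these. The difference was -3.41 (SE 0.95, adjusted p = 0.0108), and it was -1.71 (adjusted p = 0.137) after normexp correction, the 1 of 15 alternatives in which it did not pass. Mmp14, the membrane-bound activator of Mmp2, lay between 1.93 and 3.80 at week 6 (probe P216303) and did not pass with either probe, nor did Mmp12. Of the inhibitors none passed at week 6. Timp1 was nearest, with 0.94 (SE 0.39, adjusted p = 0.0772) for probe P87713 and 1.20 (SE 0.51, adjusted p = 0.0836) for probe P512384. Probe P87713 passed at week 6 under 3 alternatives, quantile scaling (adjusted p = 0.0458), normexp with quantile scaling (0.0414) and brightness as a covariate (0.0491).

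The week 6 arrays differed in cell markers as well. Of the markers of mesothelial cells, the lining of visceral fat, 5 of 6 were lower at week 6, and both Tcf21 and Wt1 were lower. All 4 B cell, 5 of 5 T cell and 5 of 5 skeletal muscle markers were higher, as were 2 of 7 neutrophil markers, while 3 of 9 adipocyte markers and 1 of 9 macrophage markers were lower. Of all probes tested 11.9% were higher and 15.8% lower at week 6, so the counts of 2 of 7 and 1 of 9 are not read as a difference. The summed level of the B cell markers (sum of signals over the 75th percentile) was 16.9 to 45.6 at week 6 and 0.377 to 11.0 in the other weeks, that of the T cell markers 3.68 to 22.8 against 0.438 to 8.95, and that of the muscle markers 14.8 to 200 against 0.747 to 98.8. For the mesothelial markers it was 0.729 to 23.0 against 0.634 to 103, for the macrophage markers 75.7 to 111 against 31.1 to 244, and for the stromal progenitor markers 92.1 to 163 against 90.2 to 430. Over all 38 arrays the Mmp3 level had a Pearson's r of 0.711 with the mean B cell marker level and -0.649 with that of the mesothelial markers. The points share week, scan day and brightness, and the week 6 arrays, the highest in Mmp3, are among them. The part of these cells in the week 6 levels of the members was not tested. Each scan day held the arrays of 1 time point, so the week and its scan days cannot be told apart. With scan day as a random block the Mmp3, Mmp2 and Mmp13 differences passed and those of Mmp9 did not (adjusted p = 0.122 and 0.0885).

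**Figure D2:**
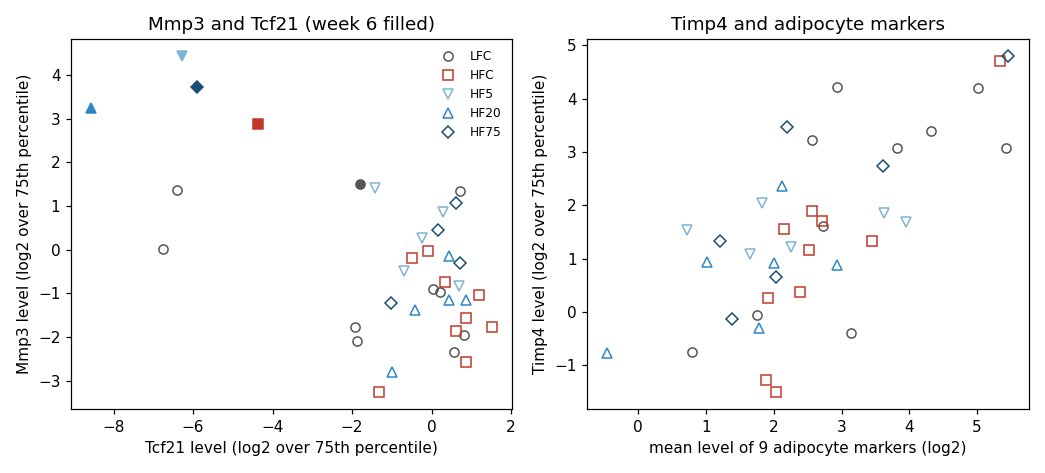
Left, Mmp3 level (y axis) against Tcf21 level (x axis), both log2 over the 75th percentile, for each array, with the week 6 arrays filled. Right, Timp4 level (y axis) against the mean level of 9 adipocyte markers (x axis). The 5 week 6 arrays lie at Mmp3 levels of 1.51 to 4.44 and Tcf21 levels of -8.56 to -1.79, and the 4 arrays with the highest adipocyte means (5.01 to 5.46) lie at Timp4 levels of 3.08 to 4.80.

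At week 12, 3 members passed, all lower, against 19.1% of all probes (16.5% higher and 2.59% lower). On the HF75 and HFC arrays of this week 6257 and 4850 spots were left out as outliers, against at most 922 on any other array. The HF5 array of this week was the dimmest of all (75th percentile 25.8). The part of array quality in these differences was not tested. Timp1, which inhibits most secreted MMPs, was at -1.89 in LFC, 2.07 in HFC, 1.47 in HF5, 0.60 in HF20 and -0.32 in HF75 (probe P87713). Its mean stood 1.50 below that of the other weeks on the log2 scale (estimate -1.50, SE 0.39, adjusted p = 0.0104), and the levels overlapped those of the other arrays. The other probe, P512384, did not pass at week 12 (-1.09, SE 0.55, adjusted p = 0.174). LFC and HF75, the lowest of the 5 Timp1 arrays at this week with probe P87713, were also among the 4 arrays with the highest adipocyte markers. LFC and HFC of week 9 were among these 4 as well. With the same probe they were the lowest and the highest Timp1 arrays of week 9, at -0.15 and 2.51. Mmp2 was lower at week 12 by an estimate of -1.47 (SE 0.40, adjusted p = 0.0124) and Mmp3 of -1.39 (SE 0.49, adjusted p = 0.049). Without week 6 in the fit, Mmp2 and Mmp3 did not pass (-1.09, adjusted p = 0.0969, and -0.65, adjusted p = 0.445) and Timp1 did (-1.37, adjusted p = 0.0321). None of the 3 passed with normexp and the 75th percentile shift or with scan day as a random block. In the same contrasts no member passed at week 3 (8.51% of all probes), week 9 (3.92%), week 15 (0.00297%) or week 18 (0.332%). At weeks 3, 9, 15 and 18 there were 3, 2, 2 and 1 members at an unadjusted p below 0.05.

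The scaling sets part of the balance between higher and lower calls. The median of all probes was -0.16 at week 6 and 0.20 at week 12, and with quantile scaling the share of calls that were higher went from 42.8% to 61.1% at week 6 and from 86.5% to 26.8% at week 12. The signs of the members that passed at weeks 6 and 12 stayed the same under each scaling tried.

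**Figure D3:**
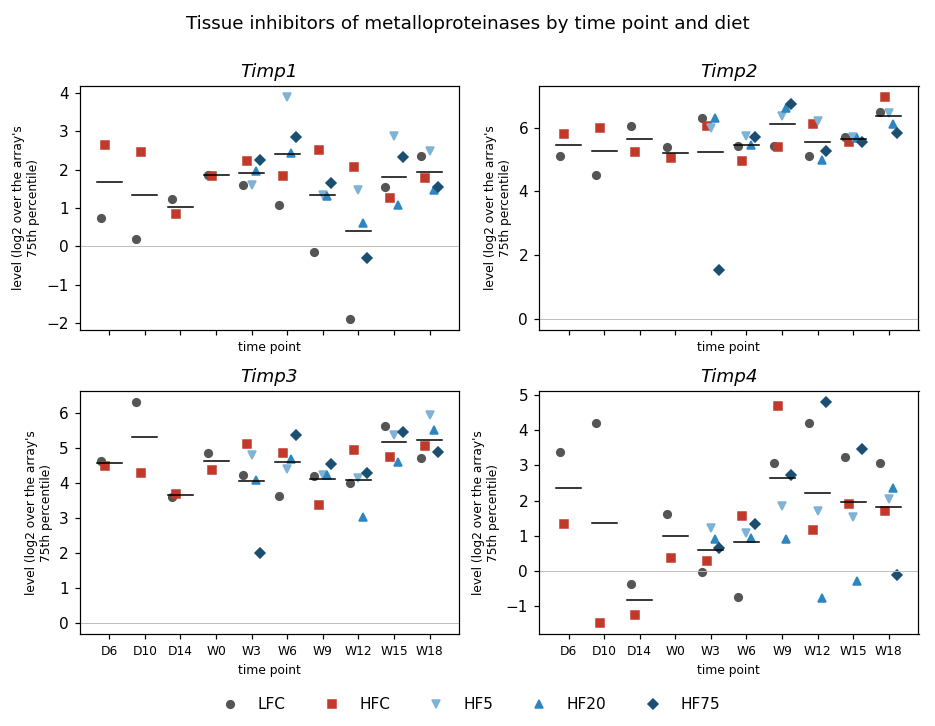
Levels of the 4 inhibitors (y axis, log2 over the 75th percentile of the array; x axis, time point; 1 symbol per diet and array, with a bar at the mean over the diets and no error bars). Timp2 and Timp3 stay within 4.51 to 6.95 and 3.04 to 6.31 on every array but HF75 at week 3 (1.54 and 1.99), while Timp4 spans -1.50 to 4.80.

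Timp2, which inhibits MMPs and also takes part in the activation of Mmp2, had a median of 5.72 and lay between 4.51 and 6.95 except on the HF75 array of week 3, where it was 1.54. Its spot was saturated on 22 of 38 arrays, which caps this range. Timp3, the inhibitor held in the matrix, had a median of 4.57 and lay between 3.04 and 6.31 except on the same array, where it was 1.99. Neither passed the test among weeks, though Timp3 did under 3 alternatives (adjusted p = 0.0276 to 0.0386). The mean level of the endothelial markers had a Pearson's r of 0.774 with Timp3 over 38 arrays.

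Timp4, the inhibitor most abundant in fat cells and heart, ranged from -1.50 to 4.80. The 4 arrays with the highest mean level of the 9 adipocyte markers were HF75 at week 12, LFC at week 9, HFC at week 9 and LFC at week 12, and their Timp4 levels were 4.80, 3.08, 4.70 and 4.20. Timp4 was also high in LFC at days 6 and 10, at 3.39 and 4.21. Over 38 arrays its level had a Pearson's r of 0.705 with the adipocyte mean and of -0.67 with the mean of the epididymis markers. The part of these cells in Timp4 was not tested.

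The main question of the design was whether the high fat diet changed these genes. No member passed in HFC against LFC over the 10 time points, and none of the 31029 probes tested did (0% called, 2818 at an unadjusted p below 0.05, smallest adjusted p 0.545). The estimate was above 0 for 7 members and below 0 for 3, with a median of 0.43 on the log2 scale beside 0.0063 over all probes. Over the weeks in which the dosed groups were sampled, the ranges of the levels overlapped between HFC and LFC and between each dose and HFC. This held for each of the 13 probes (52 comparisons in all). Other pairs of diets were not compared in this way, and the share of all probes with overlapping ranges was not counted.

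Timp1 had the smallest p-values among the inhibitors. With probe P512384 the LFC level had a lowest, median and highest value of -5.51, -2.74 and -1.55, and the HFC level of -2.58, -1.54 and -0.20. With probe P87713 these were -1.89, 1.15 and 2.35 in LFC and 0.84, 1.96 and 2.65 in HFC. HFC was above LFC in most pairs of arrays, at 8 and 6 of 10 time points. The mean differences were 1.46 (SE 0.43, p = 0.00564, adjusted p = 0.545, limma) and 1.09 (SE 0.44, p = 0.0304, adjusted p = 0.545, limma), neither past the threshold. The widest pair was week 12, at 4.40 and 3.96, where the LFC array was the lowest of the LFC series, and without week 12 the differences were 1.14 and 0.77. Without weeks 9 and 12 they were 0.91 and 0.53, and without days 6 and 10 they were 1.27 and 0.84. The LFC arrays of weeks 9 and 12 were rich in adipocyte markers (means of 5.424 and 5.007). So was the HFC array of week 9 (5.335), while the HFC array of week 12 lay below the week 12 median of 3.944. The part of fat cells in the Timp1 difference was not tested. The sequences of the 2 Timp1 probes, as the array files give them, are printed because the difference was measured with each of them separately.
Timp1, probe P512384: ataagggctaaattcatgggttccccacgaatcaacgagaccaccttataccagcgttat
Timp1, probe P87713: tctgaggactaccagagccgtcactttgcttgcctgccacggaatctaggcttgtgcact

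**Figure D4:**
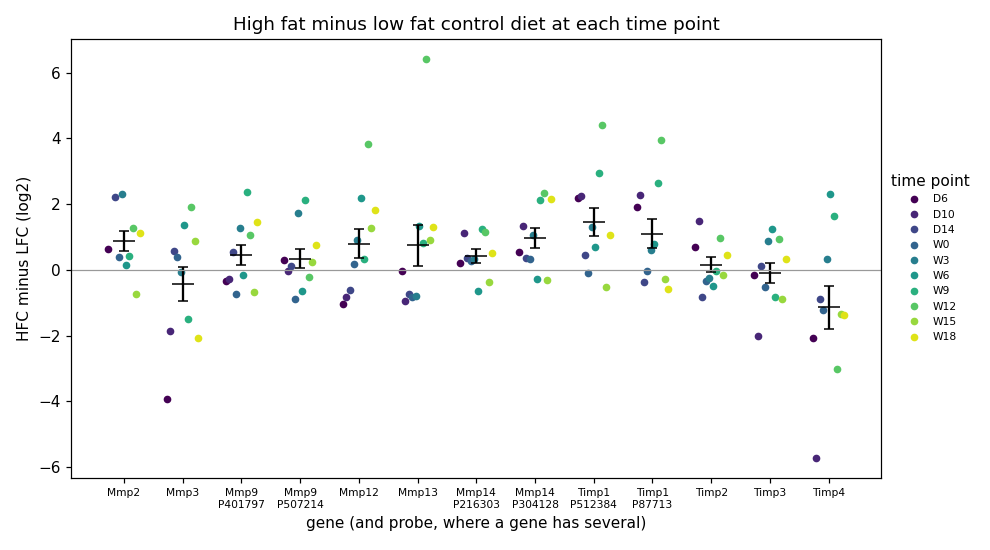
Difference of HFC minus LFC (y axis, log2) at each time point for the 13 probes (x axis), 1 point per time point, with the mean and its standard error from limma. The Timp1 points lie above 0 at 8 and 6 of 10 time points, those of Mmp2 at 8 of 9, and no probe passed the test.

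Among the proteases Mmp2 and Mmp14 were most often higher in HFC. Mmp2 had a lowest, median and highest level of -0.96, 1.08 and 2.52 in LFC and of 0.17, 2.07 and 2.92 in HFC, and it was higher in HFC at 8 of 9 time points. Its difference was 0.87 (SE 0.31, p = 0.0171, adjusted p = 0.545, limma), and day 10 has no Mmp2 value in HFC because the spot was marked as an outlier. Mmp14 was higher in HFC at 8 of 10 time points with both probes, by 0.97 with probe P304128 (SE 0.30, p = 0.0073, adjusted p = 0.545, limma) and by 0.42 with probe P216303 (SE 0.21, adjusted p = 0.545). These differences kept their sign under each alternative tried and did not pass under any.

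Mmp12 had a difference of 0.80 (SE 0.44, adjusted p = 0.554), Mmp13 of 0.74 (SE 0.62, adjusted p = 0.649) and Mmp9 of 0.45 and 0.34 with its 2 probes. The pair at week 12 was the widest for both Mmp12 and Mmp13, with Mmp12 at -5.31 in LFC and -1.47 in HFC and Mmp13 at -5.93 in LFC and 0.48 in HFC. Without week 12 the Mmp13 difference was 0.11, and Mmp12 was not well above background on enough arrays to be tested. Without days 6 and 10 the Mmp12 difference was 1.23 (adjusted p = 0.833). Timp4 was lower in HFC at 7 of 10 time points, by an estimate of -1.14 (SE 0.65, adjusted p = 0.56), and the widest pair was day 10, at 4.21 in LFC and -1.50 in HFC. Without days 6 and 10 the Timp4 estimate was -0.45. Mmp3 had an estimate of -0.44 that became 0.18 without days 6 and 10, and Timp2 and Timp3, at 0.15 and -0.093, changed sign as well. Mmp9 and Mmp12 changed sign after normexp correction with the 75th percentile shift.

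The difference between the diets was also followed over time, as its change per week of elapsed time. No member and no probe passed (0%, 1357 unadjusted, smallest adjusted p 0.981). The largest were those of Mmp13, 0.18 per week (p = 0.0412), and Mmp12, 0.16 per week (SE 0.050, p = 0.0107, adjusted p = 0.981, limma). HFC minus LFC for Mmp12 was below 0 at each of days 6, 10 and 14 and above 0 in all 7 later pairs, from week 0 to week 18. No LFC or HFC array of those 3 days was well above background. The 75th percentile subtracted there was 229, 262 and 672 in LFC and 675, 936 and 1718 in HFC. Mmp12 entered this fit through HFC alone (5 of 10 arrays well above background, 4 of 10 in LFC). The change of sign is therefore not read as a result, and the part of brightness was not tested. Over weeks 3 to 18 in the fit of all 5 diets, 9 members had an estimate above 0 for HFC minus LFC and 1 below, median 0.56 beside 0.046 over all probes, and none passed (0% of 33711 probes, 1087 unadjusted). Timp1 was again at the top by p-value, with 1.64 (p = 0.0126) and 1.19 (p = 0.0174), both with an adjusted p of 1. Without week 12 these were 1.09 and 0.64, and without weeks 9 and 12 they were 0.63 and 0.13.

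KAL-1 was compared with HFC over the 6 weeks from week 3 to week 18, and these comparisons share the HFC arrays. No member and no probe passed at 5 µg (0%, 1618 unadjusted), 20 µg (0%, 529 unadjusted), 75 µg (0%, 674 unadjusted) or for the mean of the doses (0%, 606 unadjusted). The median of the members was 0.19 at 5 µg, -0.11 at 20 µg, -0.33 at 75 µg and -0.11 for the mean of the doses. In the same order 8, 4, 2 and 3 of the 10 estimates were above 0. Over all probes these medians were -0.026, 0.044, 0.038 and 0.013. The 75 µg estimates include the dim HF75 array of week 3 (75th percentile 88.4). There HF75 minus HFC ran from -4.51 for Timp2 to 1.36 for Mmp12 among the probes that represent the members. An order by dose was not tested. The 1 member with an unadjusted p below 0.05 was Mmp3 at 5 µg. Its levels in HF5 were -0.83 at week 3, 4.44 at week 6, -0.49 at week 9, 1.40 at week 12, 0.27 at week 15 and 0.85 at week 18. In HFC they were -1.03, 2.87, -3.26, -0.19, -0.039 and -0.73 in the same order, so by the source names HF5 was higher at 6 of 6 weeks. Another label exchanges HF5 and HF20 at weeks 15 and 18. By that label the HF5 levels of these weeks were -1.15 and -0.13, so HF5 lay below HFC at week 15. With the source names the difference was 1.34 (SE 0.58, p = 0.0295, adjusted p = 0.925, limma) and did not pass under any of the 20 alternatives (0.81 to 1.57).

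Slopes across time were tested in the same way. Over the 20 arrays of LFC and HFC no member changed with elapsed time, against 0.493% of all probes. Mmp12 had a slope of 0.15 per week (SE 0.045, p = 0.00395, adjusted p = 0.209, limma), Mmp2 of -0.096 per week (SE 0.030, p = 0.00472, adjusted p = 0.223, limma) and Timp4 of 0.11 per week (SE 0.053, p = 0.0468, adjusted p = 0.433, limma). The Mmp12 slope includes the first days of the course, on which Mmp12 was not well above background. Among weeks 3 to 18 in all 5 diets none changed either, against 0.264% of probes, with Mmp13 at 0.20 per week (adjusted p = 0.206) and Timp3 at 0.072 per week (adjusted p = 0.217). Without week 3 in that fit 2 of the members passed, against 10.9% of all probes.

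The wider set of genes that act with the members was counted in the same fits. For HFC minus LFC none passed in any list. Of 11 other MMPs tested 7 had an estimate above 0, of 14 ADAM and ADAMTS proteases 11 and of 6 genes of the plasminogen system 6. Of 8 other regulators of MMPs 8 did, and of 14 matrix substrates 9. The median estimate over all probes was 0.0063, and the share of all probes above 0 was not counted. The genes share the same arrays, those of LFC at days 6 and 10 among them, so these counts are not read as a difference. Nearest by p-value were Mmp23 at 1.06 (p = 0.00534), Adam12 at 1.17 (p = 0.012), Plau, the urokinase that activates plasminogen, at 0.99 (p = 0.0138), and the matrix proteins Fn1 at 1.15 (p = 0.0045) and Vcan at 0.97 (p = 0.00513).

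Among weeks 6 of 12 other MMPs, 5 of 14 ADAM and ADAMTS proteases, 4 of 6 plasminogen genes, 4 of 9 other regulators and 4 of 14 matrix substrates passed, beside 40.8% of all probes. At week 6 the other MMPs Mmp27, Mmp15, Mmp25 and Mmp17 were higher (2.28, 2.18, 2.03 and 1.60), and Mmp7 and Mmp24 lower (-5.76 and -1.52). Of these, Mmp25 and Mmp24 were dim, well above background on 23 and 18 of 38 arrays. Mmp7 is the matrilysin of epithelia, and 2 of 6 epididymis markers were lower at the same week. The protease inhibitor Serpine2 was higher by 1.15, the cytokine Tgfb1 by 1.83, Thbs2, a matrix protein that clears Mmp2, by 1.73, and the collagen genes Col6a1, Col6a3 and Col1a1 by 1.19, 1.07 and 0.98. No ADAM or ADAMTS gene passed at week 6 (2 unadjusted). In all, 6 of 12 other MMPs, 1 of 6 plasminogen genes, 2 of 9 regulators and 3 of 14 substrates passed at week 6, beside 27.7% of all probes.

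At week 12 Mmp23 was lower (-1.18) and Mmp10 higher (1.71), Adam8 and Adamts15 lower (-1.05 and -0.94) and Adamts12 higher (1.33), and Plat, the tissue plasminogen activator, lower (-1.09). Reck, a membrane inhibitor of MMPs, was lower by an estimate of -1.15, and A2m, which traps proteases of every class, was higher by 1.93. The genes named as higher were dim. A2m, Mmp10 and Adamts12 were well above background on 11, 21 and 27 of 38 arrays. The substrates Spp1, Col6a3 and Col1a1 were lower (-2.65, -1.01 and -0.91). At week 12 the share over all probes was 19.1%, and 2 of 12 other MMPs, 3 of 14 ADAM and ADAMTS proteases, 1 of 6 plasminogen genes, 2 of 9 regulators and 3 of 14 substrates passed. With elapsed time in LFC and HFC 2 of the 14 substrates passed, beside 0.493% of all probes, both with a downward slope. These were Col1a1, a chain of the main fibrillar collagen, at -0.13 per week (adjusted p = 0.0263), and Eln, elastin, at -0.18 per week (adjusted p = 0.0301). This fit includes the first LFC arrays of the course, which were low in Tcf21 and Wt1. Without the days of those arrays fewer probes of the whole array passed. The slopes of Col1a1 and Eln without them are not given here, so these slopes are not read as a fall that holds without those arrays.

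For each member, the genes with the most alike level across the arrays were taken from 29252 probes well above background on at least 19 arrays, by Pearson's r over up to 38 arrays, which share brightness and week. Mmp2 was most like Ms4a4c (0.844), Fermt3 (0.826) and Gmip (0.824), and the genes most like Mmp3 included H2-M9 (0.866) and Vwa1 (0.863). Mmp9 was most like Trem1 (0.78), a receptor of neutrophils and monocytes, and Timp1 like Sdc1 (0.782), Spp1 (0.749) and Tmem119 (0.734). Timp4 was most like Sult1a1 (0.907), Rgcc (0.9) and Fabp4 (0.9), the fatty acid binding protein of fat cells. Mmp13 was most like D930007P13Rik (0.946), Cask (0.941) and Prpf18 (0.933), Mmp12 like Ahnak (0.772), Tep1 (0.715) and Sh2d4a (0.702), and Mmp14 like Ckap4 (0.877), Slco3a1 (0.838) and Meg3 (0.779). Timp2 was most like Rbms3 (0.877), Crebl2 (0.859) and Stat3 (0.834), and Timp3 like Arhgef2 (0.891), Klf7 (0.871) and Apbb2 (0.86).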

How the data were processed

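RNA of epididymal SVCs was hybridised to Agilent mouse 44k arrays, 1 per diet and time point. The deposited scanner files hold the processed signal as an intensity per spot, background-subtracted by Feature Extraction (10.5.1.1 per the file headers, 9.1 in the submitters' processing notes). A deposited table of log2 ratios made by the authors served as an alternative. It held the other arrays against LFC, and after the same scaling its columns followed the scanner values with an r of at least 0.992.

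Control spots and spots marked as outliers were left out, replicate spots were averaged (43803 spots, 40628 probes), and levels were log2 of the signal minus the array's log2 75th percentile. Probes well above background on at least 0.5 of the arrays of a diet in the fit were tested with limma 3.58.1 in R 4.3.3 (lmFit, eBayes, two-sided), p-values were adjusted by Benjamini-Hochberg across every probe in the fit, and the threshold was 0.05. The scripts were tested on simulated data. A sample missing at a probe was dropped from that probe's fit, never imputed.

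LFC and HFC, and the 5 diets at weeks 3 to 18, were compared with time point as a block, since the labels pair arrays by time point and nothing pairs them by animal. Elapsed time was counted with week 0 on day 14. Diets and doses were taken from the source names. For the HF5 and HF20 arrays of weeks 15 and 18 another label exchanges the doses, which was tried as an alternative. Where a gene had several probes, the brightest on average stood for it and the other is given beside it. In the lists, up to 5 genes past the threshold are named by size, or up to 2 by p-value where none passed. The members, the lists and the tests were chosen with earlier results of these data known. Alternatives were the scaling, normexp background correction (offset 50), the filter, array brightness, scan day, slide, the methods' t-test, the deposited table, and leaving out time points or arrays. The arrays were designed on build mm9, and sequences come from RefSeq tables of GRCm38.p6. A gene among those most like Mmp3 is not reported here.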

Additional observations from a re-analysis of the deposited data

Results flagged for a closer look

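In 6 of 50 groups of a member in a diet, 1 array stood apart from the rest by Dixon's criterion, which flags about 1 group in 20 by chance. Mmp3 in HFC was highest at week 6, at 2.868, while its other arrays lay between -3.262 and -0.039. Mmp14 in HFC was lowest at week 6, at 1.926, while the others lay between 3.010 and 4.205. Both values are of the same array, HFC at week 6, the week that stood low in Tcf21 and Wt1. Mmp12 in LFC was highest at week 9, at -3.071, while the others lay between -7.800 and -5.311, and that array was among the 4 with the highest adipocyte markers.

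The HF75 array of week 3 stood apart as the lowest of its diet for 3 members. Mmp9 was at -4.126 there, while the others lay between -2.726 and -2.388. Timp2 was at 1.536, against 5.260 to 6.731, and Timp3 at 1.994, against 4.288 to 5.459. This array had a 75th percentile of 88.4 intensity units. The part of brightness in these values was not tested.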

How the results depend on the processing

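No diet comparison gained a call for a member or any probe under an alternative, including the methods' t-test. For HFC minus LFC that test gave 1103 probes at its unadjusted threshold and 0 after Benjamini-Hochberg. It was run here unpaired across all time points, while the methods compared replicates within a time point. The time points pair the arrays, and without the replicate block the HFC minus LFC difference of Timp1 stayed at 1.46 and 1.09 (adjusted p = 0.917), and leaving the block out changed no call. HFC minus LFC changed sign for Timp3 under quantile scaling (0.15), normexp with the 75th percentile shift (0.13) or quantile scaling (0.18), brightness as a covariate (0.27), without days 6 and 10 (0.16), and without these and week 6 (0.0036), and ran from -0.24 to 0.12 leaving out 1 time point. It changed sign for Mmp3 with brightness (0.62), without days 6 and 10 (0.18) and without these and week 6 (0.012), for Timp2 without days 6 and 10 (-0.086), without these and week 6 (-0.030) and with slide as a random block (-0.025), and with normexp and the 75th percentile shift for Mmp12 (-0.61) and Mmp9 (-0.16 and -0.20). With the latter setting the week 3 estimates of Mmp12 and Mmp9 (0.48 and 0.040) and the week 9 estimate of Mmp9 (0.17) also changed sign.

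Of the differences among weeks, 1675 probes and 2 members passed with normexp and the 75th percentile shift, 4186 probes with the filter on every array, 5328 probes and 2 members with scan day as a random block, and 4814 probes and 0 members without week 6. Leaving out 1 week gave 4814 to 12291 probes and 0 to 5 members. At week 6, 2 members passed with normexp and the 75th percentile shift and 2 with the filter on every array. At week 12, 0 passed with normexp and the 75th percentile shift or with scan day as a random block and 1 without week 6, 1 to 3 leaving out 1 week. At week 3, 2 passed without weeks 9 and 12 and 0 to 1 leaving out 1 week, and at week 9, 0 to 2. These counts at single weeks stand without the share of all probes in the same fit, so they are not read as results about the members. For the slope on week the count of probes was 16 and 176 with normexp under either scaling, 46 without the filter, 542 with brightness, 488 without weeks 9 and 12, 35 without week 6, 374 without the HF5 array of week 12, 148 without the HF75 array of week 3, and 0 with scan day or with week as a random block. It ran from 0 (without week 18) to 3589 (without week 3) leaving out 1 week, with 0 to 2 members. For the slope on elapsed time it was 1 with normexp and the 75th percentile shift, 77 with the filter on every array, 98 without weeks 9 and 12, 8 without days 6 and 10, 7 without these and week 6, 27 with time point as a random block, and 43 to 221 leaving out 1 time point. The causes were not tested. Alternatives that drop arrays for their markers, use random blocks or keep outlier spots, and the contrasts of single weeks, were chosen after seeing the data. With 1 array per diet and time point, small differences of dim probes such as Mmp12 could not be detected.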
